A study of Mus musculus with 57 samples.

Results

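Thioacetamide (TAA) is a small sulfur compound that harms the liver only after liver enzymes have oxidised it. The livers of 5 mice taken 24 h after a single gavage of TAA were set against those of 13 mice that received 0.5% methylcellulose by gavage. These samples were chosen by their labels alone and make up 18 of the 57 bulk liver RNA-seq samples of a study on chemical liver injury. All 18 mice were male wild-type C57BL/6JJcl animals 6 weeks of age, kept for 1 week before use and dosed after 12 h of fasting. RNA came from 1 piece of the left lateral lobe, taken from its outer part after perfusion, and the libraries were made with a stranded kit that selects mRNA. The labels give neither the amount of TAA nor which of 3 listed vehicles carried it, so the methylcellulose mice match the TAA mice in route and time, and the vehicle of TAA is not known. The TAA mice carry the numbers 1, 3, 6, 7 and 8 in the labels, and values for TAA are given in that order throughout.

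TAA is converted in hepatocytes, chiefly by the cytochrome P450 Cyp2e1 and by flavin monooxygenases, to reactive sulfur oxides that bind proteins and lipids. The conversion takes place mostly around the central vein, where Cyp2e1 is abundant, and a large dose kills hepatocytes there. Surviving hepatocytes then mount stress responses, inflammatory cells enter, and hepatocytes can re-enter the cell cycle to replace lost tissue. The comparison asks which genes and functions differ from vehicle at a single time, 24 h.

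Library totals were 22190371 to 30463927 estimated counts in the TAA mice and 15188909 to 28093184 in the vehicle mice. TAA mouse 1 had the fewest detected genes of the TAA mice, 16530 with at least 1 count against 18398 to 19181 in the other 4 and 15637 to 17748 in the vehicle mice. Levels are given as CPM, each gene's count relative to its library's total, scaled with edgeR's trimmed mean of M values, and are not compared between genes. Genes were tested with edgeR's quasi-likelihood test, and a gene is said to have risen or fallen where its Benjamini-Hochberg adjusted p over all 14360 tested genes was below 0.05. By that rule 50.5% of the tested genes changed, 26.4% rising and 24% falling, so a gene list is read against those shares and against the median log2 fold change of all tested genes, 0.03. Genes that changed at least 2-fold made up 25.2%. Sizes of rises and falls, and values in brackets after a gene, are log2 fold changes with their SE where a ± follows. The gene lists hold 1262 distinct genes, of which 1189 were expressed enough to be tested, and only those enter the counts. All 5 TAA mice lay above all 13 vehicle mice for 10.9% of the genes and below them for 9.12%. In bulk tissue, fewer cells of a type and less RNA per cell cannot be told apart.

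TAA mouse 1 stood apart in genes of hepatocytes. Its summed level of 10 hepatocyte markers was 116100 CPM against 66160 to 72780 CPM in the other 4 TAA mice and 77790 to 110500 CPM in the 4 vehicle mice numbered 1 to 4 and 51710 to 75780 CPM in the 9 vehicle mice with higher numbers. Alb makes up much of that sum, and of the 10 markers 6 fell and 1 rose (median -0.39), each with groups that overlapped. Alb, the liver's main secreted protein, was abundant in all 18 mice, at 65430.1, 40929, 42249, 43289 and 44447 CPM in the TAA mice and 28050 to 73440 CPM (median 42470) in the vehicle mice. Cyp2e1 stood at 4136, 1625, 1877, 1050.3 and 1748 CPM in the TAA mice and 1733 to 3255 CPM (median 2665) in the vehicle mice. Mouse 1 lay above every vehicle mouse, mice 6 and 8 lay within the vehicle range, and mice 3 and 7 lay below it. Counts of hepatocyte genes are therefore also given without mouse 1 where it moved them by more than 1.5 times. Among other hepatocyte lists described below, leaving it out moved the falls from 44 to 49 for amino acid breakdown, from 14 to 17 for periportal genes, from 14 to 16 for bile acid synthesis and from 23 to 31 for clotting and complement. Named genes that did not pass the test with all 5 TAA mice and fell without mouse 1 were Cyp2e1 (-0.74), Calr (-0.33), Col3a1 (-0.91), Cpt1a (-0.42), Hspe1 (-0.41) and Aif1 (-0.97). Aif1, a macrophage gene, also fell without vehicle mouse 1 (-0.89), 2 (-0.91), 3 (-0.90) or 4 (-0.90).

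**Figure D1:**
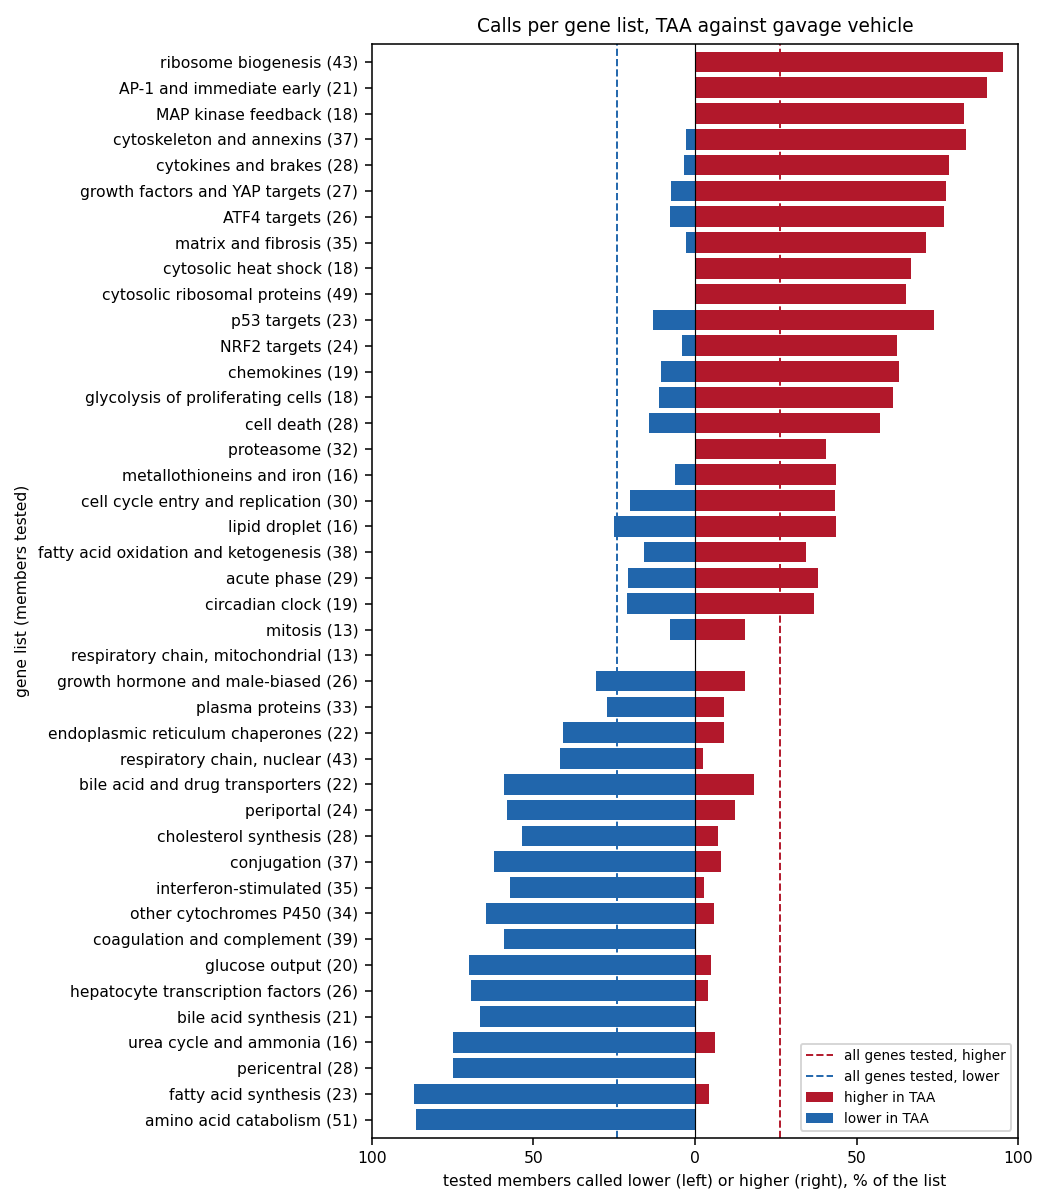
For each pathway list with at least 10 tested members, the share of tested members called higher (red, right) or lower (blue, left) in TAA, in percent, with the number tested in brackets. The dashed lines mark the shares over all tested genes, 26.4% higher and 24% lower. Ribosome biogenesis, immediate early genes and MAP kinase feedback lie at the top, and amino acid catabolism, fatty acid synthesis and pericentral genes at the bottom.

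The largest rises belonged to genes that are nearly silent in the vehicle liver. Fosl1, a subunit of the AP-1 transcription factor, stood at 64.5, 61, 50.6, 45.3 and 52.3 CPM in the TAA mice and 0 to 0.219 CPM (median 0.0430) in the vehicle mice. Areg, the growth factor amphiregulin, stood at 5.52, 5.94, 16.4, 17.2 and 15.1 CPM in the TAA mice and 0 to 0.219 CPM (median 0) in the vehicle mice. Only genes whose groups did not overlap were taken for the largest rises and falls. Fosl1 and Areg were both near 0 in every vehicle mouse. Their fitted log2 fold changes were 9.86 ± 0.39 (SE, adjusted p = 1.06e-12) and 8.63 ± 0.56 (SE, adjusted p = 3.67e-10), and such values depend on the small count that edgeR adds before taking a ratio. Without vehicle mouse 18 the value for Areg was 10.30 and the value for Cxcl2 was 7.02. Without vehicle mouse 7 the value for Gml was 8.95, and without TAA mouse 7 that for Cxcl2 was 5.01. The 12 largest rises were taken among genes that rose with no overlap and a mean of at least 10 CPM in the higher group. Others of the 12 were Gml, Cidec, Npy, Dusp5, Cxcl2, Thbs1, Ier3, Maff and Sprr1a. Their log2 fold changes ran from 6.08 for Sprr1a to 8.06 for Gml. Cidec coats lipid droplets, Thbs1 is a matrix protein that activates TGF-beta, and Dusp5 switches off nuclear ERK. Npy, the neuropeptide Y gene, stood at 2.22, 19.3, 17.6, 22.9 and 12.3 CPM in the TAA mice and 0 to 0.402 CPM (median 0) in the vehicle mice. The 5 TAA mice spanned a wide range, and all lay above the vehicle mice, which the choice of genes required.

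The largest falls included genes of bile acid, lipid, glucose and steroid metabolism. Sucnr1, a receptor for succinate, stood at 1.02, 0.412, 0.518, 0.374 and 1.19 CPM in the TAA mice and 19.5 to 68.2 CPM (median 27.5) in the vehicle mice. Cyp8b1, which sets the ratio of cholic to other bile acids, stood at 19.7, 3.09, 4.34, 3.94 and 2.80 CPM in the TAA mice and 131 to 419.8 CPM (median 238) in the vehicle mice. Thrsp, a promoter of lipid synthesis, stood at 37.3, 9.75, 4.03, 5.03 and 9.32 CPM in the TAA mice and 228 to 743 CPM (median 518) in the vehicle mice. In all 3 genes every TAA mouse lay below every vehicle mouse, which the choice of genes required. The log2 fold changes were -5.50 ± 0.41 (SE, adjusted p = 2.6e-09), -5.25 ± 0.50 (SE, adjusted p = 6.29e-08) and -5.20 ± 0.57 (SE, adjusted p = 3.63e-07). TAA mouse 1 was the highest TAA mouse for Cyp8b1 and Thrsp, and without it the values were -6.17 and -6.09. The other 9 of the 12 largest falls by the same choice were G6pc, Tmie, Hsd3b5, Apol7a, Dhrs3, Spata2l, Tmem25, Abca8a and Cyp2b9. They lay between -4.31 for G6pc and -3.58 for Cyp2b9 on the log2 scale. G6pc without TAA mouse 3 gave -5.14, and Hsd3b5 without mouse 1 gave -4.82.

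Of the enzymes that activate TAA, Cyp2e1 did not pass the test, with a log2 fold change of -0.32 ± 0.23 (SE, adjusted p = 0.257), and fell, at -0.74, without TAA mouse 1. The flavin monooxygenase genes split: 3 fell, Fmo1 and Fmo5 (-1.003) the most, and Fmo2 rose (0.97). The call for Fmo2 was lost without TAA mouse 3, at 0.51. Fmo1 stood at 115, 55.4, 61.7, 57.4 and 62.9 CPM in the TAA mice and 97.6 to 311 CPM (median 155) in the vehicle mice, a log2 fold change of -1.22 ± 0.22 (SE, adjusted p = 0.000132). TAA mouse 3 was the lowest, and the groups overlapped. Por, the reductase that hands electrons to the P450 enzymes, stood at 518, 307, 284, 301 and 339.7 CPM in the TAA mice and 64.8 to 213 CPM (median 164) in the vehicle mice. Every TAA mouse lay above every vehicle mouse, with a log2 fold change of 1.20 ± 0.20 (SE, adjusted p = 4.29e-05).

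Other P450 genes were mostly lower: 22 of 34 tested fell and 2 rose, with a median log2 fold change of -0.96. Cyp2b10 and Cyp2c29, which oxidise many drugs, stood at 11.4, 10.03, 3.999, 3.16 and 7.07 CPM in the TAA mice and 17.6 to 38.8 CPM (median 31.1) in the vehicle mice and 184, 104, 130.2, 87.5 and 146 CPM in the TAA mice and 732 to 1329 CPM (median 1039) in the vehicle mice. Neither gene's groups overlapped, and the log2 fold changes were -2.11 ± 0.26 (SE, adjusted p = 1.82e-06) and -2.97 ± 0.19 (SE, adjusted p = 2.15e-10). The larger of the 2 rises was in Cyp2a4 (2.10), a near-identical copy of Cyp2a5, and the authors' quantification could have split counts between the copies. Conjugation followed the same pattern, with 23 of 37 enzymes lower and 3 higher (median -0.77). Gsta3, a glutathione transferase, stood at 549, 276, 373, 336 and 523 CPM in the TAA mice and 1576 to 2185 CPM (median 1751) in the vehicle mice, a log2 fold change of -2.12 ± 0.16 (SE, adjusted p = 2.05e-09). In the opposite direction Gsta1 stood at 208, 519, 431, 372 and 531 CPM in the TAA mice and 5.35 to 87.4 CPM (median 22.6) in the vehicle mice, with no overlap and a log2 fold change of 3.70 ± 0.49 (SE, adjusted p = 3.82e-06). Gsta1 has a close copy in Gsta2, so the split of counts between them is uncertain. Without TAA mouse 1 the falls were 25 of 34 for P450 genes and 24 of 37 for conjugation. Rises of P450 genes numbered 1 without TAA mouse 1, 6 or 7, and also without any 1 of many vehicle mice.

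Genes of the oxidative stress response rose. NRF2, a transcription factor released when cysteines of its partner KEAP1 are modified, drives genes for glutathione, thioredoxin and NADPH. Of 24 tested NRF2 targets 15 rose and 1 fell, with a median of 0.63. Hmox1, which breaks down haem, stood at 389.7, 347, 381, 548 and 497 CPM in the TAA mice and 21.8 to 52.4 CPM (median 34.3) in the vehicle mice. Srxn1, which repairs peroxiredoxins, stood at 416, 423, 269, 206 and 311 CPM in the TAA mice and 16.7 to 46.4 CPM (median 28.8) in the vehicle mice. Nqo1, a quinone reductase, stood at 14.9, 33.2, 16.4, 15.3 and 24.3 CPM in the TAA mice and 4.48 to 8.32 CPM (median 6.13) in the vehicle mice. No TAA mouse overlapped the vehicle mice in any of them, and the log2 fold changes were 3.69 ± 0.16 (SE, adjusted p = 2.76e-12), 3.53 ± 0.22 (SE, adjusted p = 2.71e-10) and 1.72 ± 0.17 (SE, adjusted p = 1.27e-07). The cystine transporter gene Slc7a11 stood at 0.698, 0.859, 0.633, 2.65 and 0.790 CPM in the TAA mice and 0 to 0.0730 CPM (median 0) in the vehicle mice, with a fitted log2 fold change of 6.14 ± 0.60 (SE, adjusted p = 7.7e-08), which was 5.53 without TAA mouse 7 and 6.89 without vehicle mouse 18. Gclc, the catalytic subunit that makes the glutathione precursor, rose by 1.02 ± 0.16, while its partner Gclm gave -0.02 ± 0.15 and did not pass the test. Me1, an NADPH source that also serves lipid synthesis, was the 1 member that fell (-1.65 ± 0.31).

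The metallothioneins, small proteins that bind zinc and copper, rose. Mt1 stood at 8735, 5388, 5489, 4928 and 6858 CPM in the TAA mice and 61.4 to 663 CPM (median 147) in the vehicle mice, and Mt2 at 6700.2, 3359, 4814, 4500 and 6529 CPM in the TAA mice and 19.5 to 443 CPM (median 49.9) in the vehicle mice. Both were separate from vehicle in every mouse, with log2 fold changes of 5.16 ± 0.39 (SE, adjusted p = 2.79e-09) and 5.92 ± 0.58 (SE, adjusted p = 9.6e-08), the latter 6.54 without vehicle mouse 18. The zinc importer gene Slc39a14 and the zinc exporter gene Slc30a1 rose by 1.56 ± 0.16 and 1.45 ± 0.24. Of the 16 tested genes of metal and iron handling, 7 rose and 1, the manganese exporter gene Slc30a10, fell (-1.02 ± 0.16).

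Genes driven by ATF4, the transcription factor of the integrated stress response, rose, while most chaperones of the endoplasmic reticulum did not. Of 26 tested ATF4 targets 20 rose and 2 fell (median 1.62), whereas of 22 endoplasmic reticulum chaperone and quality control genes 2 rose and 9 fell (median -0.15). Promoters of both kinds are shown because their sequences carry different elements. Each runs from 250 bases before to 50 bases after the RefSeq start site on GRCm38.p6, 5′ to 3′ on the gene's own strand. Capitals mark, in the first 3, the ATF4 composite site TGATGNAA on either strand, and in the last 3 the ER stress element on either strand.
Asns, chr6:7693160-7693459, minus strand: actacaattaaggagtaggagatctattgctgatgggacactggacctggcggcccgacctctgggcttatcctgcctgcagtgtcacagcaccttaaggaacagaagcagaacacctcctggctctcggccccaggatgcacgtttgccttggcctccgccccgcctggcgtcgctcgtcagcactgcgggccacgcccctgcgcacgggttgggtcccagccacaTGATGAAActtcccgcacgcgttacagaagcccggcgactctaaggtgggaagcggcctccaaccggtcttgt
Atf3, chr1:191183284-191183583, minus strand: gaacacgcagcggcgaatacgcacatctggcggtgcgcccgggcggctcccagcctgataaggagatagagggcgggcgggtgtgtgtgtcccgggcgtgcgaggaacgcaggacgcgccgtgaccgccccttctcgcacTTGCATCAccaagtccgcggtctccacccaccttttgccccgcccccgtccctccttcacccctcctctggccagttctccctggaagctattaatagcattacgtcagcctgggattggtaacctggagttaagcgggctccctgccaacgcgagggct
Fgf21, chr7:45615441-45615740, minus strand: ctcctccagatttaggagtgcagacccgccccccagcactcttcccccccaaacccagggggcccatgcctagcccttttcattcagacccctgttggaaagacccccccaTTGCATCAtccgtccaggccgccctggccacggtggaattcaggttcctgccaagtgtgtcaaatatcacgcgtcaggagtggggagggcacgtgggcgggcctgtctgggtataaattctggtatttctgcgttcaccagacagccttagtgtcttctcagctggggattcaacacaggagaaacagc
Hspa5, chr2:34771840-34772139, plus strand: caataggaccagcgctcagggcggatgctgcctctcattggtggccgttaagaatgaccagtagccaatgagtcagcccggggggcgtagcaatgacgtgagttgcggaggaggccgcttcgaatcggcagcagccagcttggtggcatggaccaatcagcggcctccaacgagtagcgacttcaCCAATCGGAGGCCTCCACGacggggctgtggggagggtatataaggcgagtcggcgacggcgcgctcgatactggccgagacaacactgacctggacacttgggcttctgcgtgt
Hsp90b1, chr10:86705395-86705694, minus strand: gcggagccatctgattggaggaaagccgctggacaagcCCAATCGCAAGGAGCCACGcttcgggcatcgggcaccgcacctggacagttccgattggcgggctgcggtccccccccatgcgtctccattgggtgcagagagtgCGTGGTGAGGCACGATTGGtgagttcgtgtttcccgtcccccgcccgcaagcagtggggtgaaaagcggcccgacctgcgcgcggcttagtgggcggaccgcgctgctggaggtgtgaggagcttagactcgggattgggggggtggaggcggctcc
Calr, chr8:84846882-84847181, minus strand: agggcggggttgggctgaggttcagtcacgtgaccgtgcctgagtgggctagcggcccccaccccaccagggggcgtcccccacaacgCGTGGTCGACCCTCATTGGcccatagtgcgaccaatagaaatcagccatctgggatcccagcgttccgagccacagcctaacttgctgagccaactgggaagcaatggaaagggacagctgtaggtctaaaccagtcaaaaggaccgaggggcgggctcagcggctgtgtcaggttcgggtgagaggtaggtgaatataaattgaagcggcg

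The ER stress element searched was CCAAT followed, 9 bases further on, by CCACG, and N in the ATF4 site is any base. A match to both could overlap, which was not scored. Of the 25 ATF4 targets with a RefSeq promoter, 9 (36%) held the ATF4 site against 4.51% of all 27025 genes with a promoter. The ER stress element stood in 9 of 20 endoplasmic reticulum genes (45%) against 0.137% of all genes. Among tested genes, 5 of the 8 ATF4 targets with the site rose, as did 14 of the 16 without it. Of the 9 endoplasmic reticulum genes with the element, 1 rose and 1 fell, and of the 11 without it 1 rose and 7 fell. A match describes these letters in this window and does not show binding.

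Asns, which makes asparagine, stood at 15.4, 14.9, 12.1, 10.5 and 15.1 CPM in the TAA mice and 1.18 to 8.90 CPM (median 4.75) in the vehicle mice. Atf3, a stress-induced repressor, stood at 84, 64.9, 102, 162 and 112 CPM in the TAA mice and 0.355 to 5.01 CPM (median 2.31) in the vehicle mice. Fgf21, a hormone that the stressed liver secretes, stood at 7.30, 8.96, 10.04, 9.38 and 8.77 CPM in the TAA mice and 0.168 to 3.09 CPM (median 0.446) in the vehicle mice. None of the 3 overlapped the vehicle mice, with log2 fold changes of 1.61 ± 0.27 (SE, adjusted p = 4.78e-05), 5.31 ± 0.42 (SE, adjusted p = 5.84e-09) and 3.65 ± 0.46 (SE, adjusted p = 1.97e-06). Atf4 itself rose by 1.36 ± 0.16 and Ddit3, which encodes the death-promoting factor CHOP, by 2.71 ± 0.20. Enzymes of serine synthesis were among the members that rose, with Psat1 at 3.65 and Phgdh at 2.31. Cth, which makes cysteine from cystathionine, fell by 1.41 on the log2 scale. Trib3 and Chac1, also ATF4 targets, did not pass the test (0.45 and -0.45).

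Hspa5, the main chaperone of the endoplasmic reticulum, stood at 703, 529, 982, 992 and 841 CPM in the TAA mice and 173 to 454 CPM (median 301) in the vehicle mice. It lay above vehicle in every TAA mouse, a log2 fold change of 1.36 ± 0.19 (SE, adjusted p = 8.19e-06). Hsp90b1 stood at 352, 185, 226, 459 and 258 CPM in the TAA mice and 90.1 to 427 CPM (median 242) in the vehicle mice, and Calr at 847, 548, 459, 486 and 498 CPM in the TAA mice and 490.4 to 814 CPM (median 640) in the vehicle mice. Both ranges overlapped vehicle and neither passed the test (0.23 and -0.14). Sel1l (-1.17 ± 0.14) and Edem1 (-0.92 ± 0.15), which act in the removal of misfolded proteins from the endoplasmic reticulum, were among the 9 genes of that list that fell. In the cytosol, 12 of 18 heat shock genes rose and none fell. Hspa1a stood at 11.3, 15.4, 17.7, 27.2 and 16.1 CPM in the TAA mice and 0.167 to 1.56 CPM (median 1.02) in the vehicle mice and Hspb1 at 227, 111, 153, 126 and 177 CPM in the TAA mice and 9.58 to 25.2 CPM (median 14.2) in the vehicle mice. Every TAA mouse lay above every vehicle mouse in both, and the log2 fold changes were 4.26 ± 0.28 (SE, adjusted p = 4.97e-10) and 3.27 ± 0.19 (SE, adjusted p = 1.04e-10). Hspa1a and Hspa1b are near-identical copies, so their split is uncertain. The mitochondrial chaperonin genes Hspd1 (0.02) and Hspe1 (-0.27) did not pass the test.

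Targets of p53, the transcription factor that responds to DNA damage and other stress, rose in 17 of 23 tested cases and fell in 3 (median 1.51). Cdkn1a, which encodes the cell cycle inhibitor p21, stood at 334, 225, 222, 194 and 292 CPM in the TAA mice and 3.68 to 23.9 CPM (median 13.3) in the vehicle mice. Mdm2, which returns p53 to a low level, stood at 26.3, 30.9, 49.1, 56.2 and 42.9 CPM in the TAA mice and 6.37 to 12.3 CPM (median 7.53) in the vehicle mice. Bax, which permeabilises mitochondria, stood at 136, 168, 142, 114 and 150.2 CPM in the TAA mice and 16.1 to 74.2 CPM (median 37.8) in the vehicle mice. No overlap was seen in these 3 genes, and the log2 fold changes were 4.29 ± 0.33 (SE, adjusted p = 4.19e-09), 2.28 ± 0.16 (SE, adjusted p = 1.64e-09) and 1.91 ± 0.27 (SE, adjusted p = 8.78e-06). The death receptor genes moved in different directions: Tnfrsf10b rose by 3.71 ± 0.31 and Fas fell by 0.67 ± 0.19 on the log2 scale. Of 28 cell death genes 16 rose and 4 fell. They included both killers and protectors: the BH3-only gene Bcl2l11 (2.48) and the anti-death genes Bcl2l1 (2.25) and Mcl1 (1.35) all rose. Ripk3, a kinase of necroptosis, rose by 1.39 ± 0.36, and Gsdmd, the pore former of pyroptosis, fell by 0.76 ± 0.15 on the log2 scale.

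Immediate early genes, growth factors and the brakes of MAP kinase signalling rose. The first comprise transcription factors switched on within minutes of a growth or stress signal, and 19 of 21 tested rose and none fell (median 3.39). Myc, which drives ribosome and cell growth genes, stood at 75.9, 54.3, 96.4, 117 and 98 CPM in the TAA mice and 1.47 to 12.8 CPM (median 2.96) in the vehicle mice. Jun stood at 65.6, 81.2, 155, 239.9 and 126 CPM in the TAA mice and 4.53 to 52.1 CPM (median 27.3) in the vehicle mice, and Fos at 82.6, 46.9, 132, 180 and 113 CPM in the TAA mice and 0.541 to 38.8 CPM (median 10.4) in the vehicle mice. Each lay above vehicle in all 5 TAA mice, with log2 fold changes of 4.65 ± 0.36 (SE, adjusted p = 4.67e-09), 2.26 ± 0.37 (SE, adjusted p = 4.69e-05) and 2.81 ± 0.60 (SE, adjusted p = 0.000629). Nr4a1 was the highest of the members that did not pass the test (0.64).

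Among growth factors and targets of YAP, the effector of the Hippo pathway, 21 of 27 rose and 2 fell (median 1.71). Those that rose included, beside Areg, the EGF receptor ligands Ereg (6.98), Hbegf (5.49), Btc (3.41) and Tgfa (1.15), while Egf did not pass the test (0.39). Hbegf stood at 27, 14.3, 24.4, 22.9 and 21.7 CPM in the TAA mice and 0.142 to 0.868 CPM (median 0.528) in the vehicle mice. The receptor gene itself, Egfr, did not pass the test (0.18 ± 0.23), and Met, the receptor for hepatocyte growth factor, fell by 0.61 ± 0.19 on the log2 scale. The YAP targets Ccn1 and Ccn2 stood at 172, 128, 283, 322 and 287 CPM in the TAA mice and 3.41 to 11.1 CPM (median 7.63) in the vehicle mice and 98.7, 106, 207, 208 and 161 CPM in the TAA mice and 1.35 to 7.27 CPM (median 3.27) in the vehicle mice. Neither overlapped, with log2 fold changes of 4.96 ± 0.24 (SE, adjusted p = 9.55e-12) and 5.30 ± 0.32 (SE, adjusted p = 1.45e-10). Of 18 MAP kinase feedback genes 15 rose and none fell. Dusp4, Dusp5 and Dusp6, phosphatases that act on ERK, rose by 4.46 ± 0.19, 6.56 ± 0.33 and 1.57 ± 0.27. Spry2, which blocks receptor signalling upstream, rose by 2.91 ± 0.23, and Etv4, a transcription factor induced by ERK, by 4.08 ± 0.62.

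**Figure D2:**
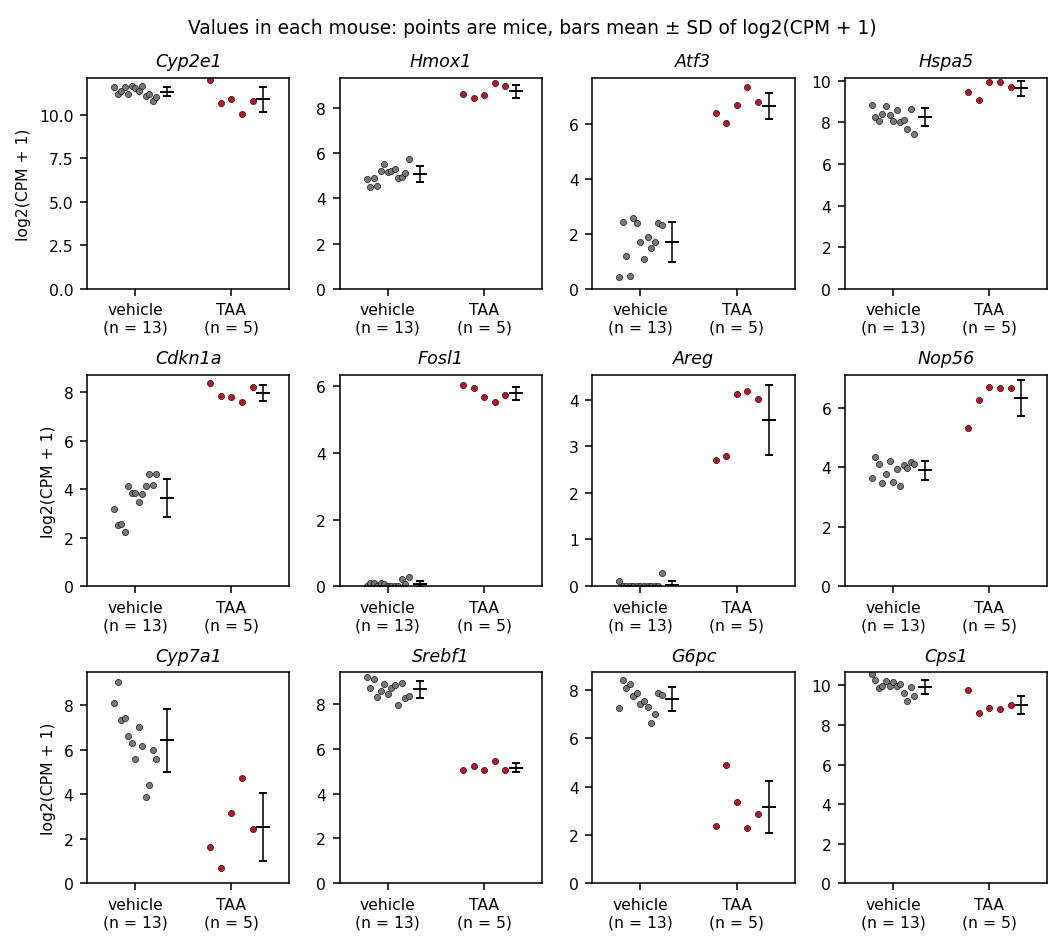
Level of 12 genes in each mouse as log2(CPM + 1), with grey points for the 13 vehicle mice and red points for the 5 TAA mice, and bars for the mean ± SD. Fosl1 and Areg are near 0 in the vehicle mice, Hmox1, Atf3, Hspa5, Cdkn1a and Nop56 lie above them in every TAA mouse, Srebf1 and G6pc lie below, and Cyp2e1, Cyp7a1 and Cps1 overlap.

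Genes for building ribosomes rose as a block. Of 43 tested ribosome biogenesis genes, many of them known as targets of Myc, 41 rose and none fell, with a median of 1.17, and for 30 of them every TAA mouse lay above every vehicle mouse. Nop56 and Nop58, core proteins of the complexes that methylate ribosomal RNA, stood at 38.6, 75.8, 103, 101 and 101 CPM in the TAA mice and 9.36 to 19.1 CPM (median 14.7) in the vehicle mice and 75, 33.8, 81.9, 83.9 and 56.9 CPM in the TAA mice and 4.69 to 17.1 CPM (median 9.49) in the vehicle mice. Mouse 1 was the lowest TAA mouse for Nop56, and neither gene's groups overlapped. Their log2 fold changes were 2.56 ± 0.19 (SE, adjusted p = 1.82e-09) and 2.61 ± 0.27 (SE, adjusted p = 1.83e-07). Npm1 and Ncl, abundant nucleolar proteins, rose by 1.93 ± 0.18 and 2.24 ± 0.18. Heatr1 (0.10) and Rcl1 (-0.05) were the members that did not pass the test. Ribosomal protein genes gave smaller values: 32 of 49 rose, none fell, none reached 2-fold, and the median was 0.41. Without TAA mouse 1 the count was 20 of 49, and the median shift of these genes was highest in mouse 1 (0.84 against 0.06 to 0.53 in the others, as log2(CPM + 1) minus the vehicle mean). Of 32 proteasome genes 13 rose and none fell, led by Psmd8 at 1.32 ± 0.10.

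Part of the genes of cell cycle entry rose, and few mitosis genes passed the test. Of 30 tested genes of cell cycle entry and DNA replication 13 rose and 6 fell, against shares of 26.4% and 24% for all genes. Ccnd1, the cyclin that starts the cycle, stood at 21.8, 38.3, 23.9, 37.3 and 23.4 CPM in the TAA mice and 4.25 to 13.1 CPM (median 6.92) in the vehicle mice. Ccne1, the cyclin of the step into DNA synthesis, stood at 6.60, 4.57, 5.35, 2.96 and 8.97 CPM in the TAA mice and 0.183 to 0.853 CPM (median 0.438) in the vehicle mice. Both were separate from vehicle, with log2 fold changes of 1.93 ± 0.23 (SE, adjusted p = 1.15e-06) and 3.64 ± 0.29 (SE, adjusted p = 6.52e-09). The replication licensing genes Cdt1 (2.05), Mcm2 (1.02) and Mcm6 (1.12) rose, as did Pcna (1.26) and Rrm2 (2.13). Others fell: Tk1, the salvage kinase for thymidine, stood at 4.44, 3.78, 4.98, 6.42 and 3.63 CPM in the TAA mice and 30.1 to 57.2 CPM (median 36.4) in the vehicle mice, below every vehicle mouse, a log2 fold change of -3.09 ± 0.19 (SE, adjusted p = 1.91e-10). E2f1 and E2f2, transcription factors of DNA synthesis genes, fell, with log2 fold changes of -0.49 ± 0.15 and -1.90 ± 0.42.

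Of 28 mitosis genes, 13 were expressed enough to be tested, and of those Aurka (1.05 ± 0.38) and Bub1b (0.94 ± 0.37) rose and Birc5 fell by 1.23 ± 0.48 on the log2 scale. None of these 3 calls held in every fit that left out 1 mouse: Aurka lost it without TAA mouse 3, 6 or 8, Bub1b without TAA mouse 1, 3 or 6 or vehicle mouse 1, 2, 3, 7, 9, 12 or 15, and Birc5 without TAA mouse 1, 6, 7 or 8 or vehicle mouse 3, 4, 7, 10, 12, 17 or 18. Mki67, the usual marker of dividing cells, was not tested and stood at 0.0635, 0.0687, 0.0288, 0.136 and 0.0395 CPM in the TAA mice and 0.0558 to 0.348 CPM (median 0.102) in the vehicle mice. Cdk1 stood at 0.952, 1.17, 0.719, 0.816 and 1.03 CPM in the TAA mice and 0.764 to 3.55 CPM (median 1.34) in the vehicle mice. Mki67 was near 0 in all 18 mice, and Cdk1, at low levels with overlapping groups, did not pass the test (-0.67 ± 0.30) but fell without vehicle mouse 2 (-0.74) or 3 (-0.73). The 15 untested members stayed below the filter on low counts.

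**Figure D3:**
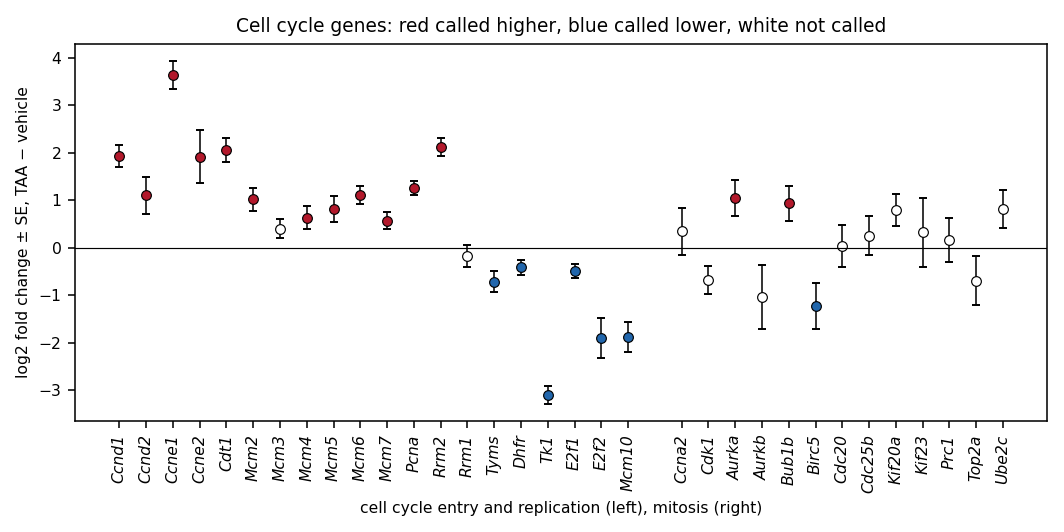
Log2 fold change ± SE of 20 genes of cell cycle entry (left) and the 13 tested genes of mitosis (right), TAA against vehicle, with red for genes called higher, blue for lower and white for not called. Cyclins D and E and most replication licensing genes lie above 0, Tk1, E2f2 and Mcm10 below, and most mitosis genes have errors that reach toward 0.

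Genes of cell shape and of matrix remodelling rose. Of 37 cytoskeleton and annexin genes 31 rose and 1 fell (median 1.34). Krt8 and Krt18, the keratin pair of hepatocytes, stood at 1843, 2325, 2231, 1894 and 2365 CPM in the TAA mice and 114 to 329.7 CPM (median 158) in the vehicle mice and 1973, 2092, 1927, 1803 and 1886 CPM in the TAA mice and 128 to 275 CPM (median 154) in the vehicle mice. All TAA mice lay above all vehicle mice, with log2 fold changes of 3.50 ± 0.21 (SE, adjusted p = 1.15e-10) and 3.47 ± 0.15 (SE, adjusted p = 2.76e-12). Actb and Actg1, the cytoplasmic actins often used as reference genes, rose by 2.19 ± 0.12 and 2.41 ± 0.16. Of 35 matrix genes 25 rose and 1 fell (median 1.75), and 5 fell without TAA mouse 1. Thbs1 stood at 23.4, 23.5, 51.4, 90.05 and 42.3 CPM in the TAA mice and 0.0913 to 2.37 CPM (median 0.294) in the vehicle mice, with a fitted log2 fold change of 6.29 ± 0.54 (SE, adjusted p = 1.41e-08). Acta2 and Tagln, contractile genes of myofibroblasts and of vessel walls, rose by 3.90 ± 0.41 and 3.50 ± 0.27. The basement membrane collagens Col4a1 and Col4a2 rose by 2.12 ± 0.18 and 1.75 ± 0.15. The fibrillar collagens of scars did not: Col1a1 gave 0.48 ± 0.36, Col1a2 0.37 ± 0.36 and Col3a1 -0.25 ± 0.35, and none passed the test.

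Inflammatory signals rose, and interferon-stimulated genes fell. Of 19 tested chemokines 12 rose and 2 fell. Cxcl2, which draws neutrophils, stood at 33.3, 10.3, 28.5, 200.1 and 22 CPM in the TAA mice and 0 to 3.94 CPM (median 0.258) in the vehicle mice. Ccl2, which draws monocytes, stood at 23.1, 31.7, 47.3, 158 and 26.3 CPM in the TAA mice and 0.168 to 9.75 CPM (median 2.05) in the vehicle mice. Neither overlapped, mouse 7 was the highest TAA mouse for Cxcl2, and the log2 fold changes were 6.31 ± 0.79 (SE, adjusted p = 1.99e-06) and 4.34 ± 0.65 (SE, adjusted p = 1.61e-05). Without mouse 7 they were 5.01 and 3.51, and Cxcl2 gave 7.02 without vehicle mouse 18. Cxcl12, which holds leukocytes in tissue, fell by 1.58 ± 0.12 on the log2 scale. Of 28 cytokines, receptors and inhibitors 22 rose and 1, Il18, fell by 1.74 ± 0.16 on the log2 scale. Osmr, the receptor for oncostatin M, rose by 2.46 ± 0.21 and Tnfrsf12a, the receptor for TWEAK, by 5.46 ± 0.24. Il1b rose by 2.66 ± 0.52, with groups that overlapped and mouse 7 highest (3.05, 5.15, 6.73, 47.7 and 5.17 CPM), and gave 1.23 without that mouse. Members of that list that rose also included the inhibitors Socs3 (3.29), Tnfaip3 (3.36) and Nfkbia (1.66). Il6 was not tested and stood at 0, 0.103, 0.374, 3.06 and 0.355 CPM in the TAA mice and 0 to 0.546 CPM (median 0.0730) in the vehicle mice.

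The acute phase response, the change in plasma proteins that hepatocytes make under IL-6 and IL-1, was mixed: 11 of 29 rose and 6 fell. Lcn2, an iron-binding defence protein, stood at 963, 2129, 2181, 2043 and 2084 CPM in the TAA mice and 8.21 to 691 CPM (median 47.6) in the vehicle mice, above every vehicle mouse, with a log2 fold change of 3.99 ± 0.74 (SE, adjusted p = 0.000168) that was 4.73 without vehicle mouse 18. Saa1, serum amyloid A, stood at 562, 243, 235, 250.4 and 224 CPM in the TAA mice and 70.4 to 2179 CPM (median 209) in the vehicle mice. It overlapped the vehicle mice and did not pass the test (-0.36 ± 0.64). In mice numbered 1 to 4 alone, 2 TAA and 4 vehicle mice, Saa1 rose by 1.70 on the log2 scale. C3 and Crp fell, with log2 fold changes of -0.59 ± 0.19 and -1.21 ± 0.20.

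Of 35 interferon-stimulated genes 20 fell and 1, Rsad2, rose (1.24 ± 0.43), with a median of -1.01. Rsad2 lost its call without TAA mouse 7, at 0.35. Psmb9, a proteasome subunit that prepares peptides for antigen presentation, stood at 6.92, 3.26, 4.86, 6.46 and 5.37 CPM in the TAA mice and 8.11 to 24.1 CPM (median 17.1) in the vehicle mice. No TAA mouse overlapped the vehicle mice, with a log2 fold change of -1.64 ± 0.24 (SE, adjusted p = 1.03e-05). Tap1, which carries those peptides, fell by 1.42 ± 0.22 on the log2 scale. The guanosine triphosphatase genes Igtp and Irgm2 fell, with log2 fold changes of -1.99 ± 0.32 and -2.39 ± 0.39. Other interferon-inducible genes, Isg15 (-0.16), Mx1 (-0.16) and Ifit1 (-0.37), did not pass the test, and Ifit1 fell without TAA mouse 7, at -1.32. Mice numbered above 4 alone, 3 TAA and 9 vehicle mice, gave 24 falls, and mice numbered 1 to 4 alone gave 8.

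Markers of cells other than hepatocytes moved with these groups. Summed over the neutrophil markers, the TAA mice stood at 169, 297, 386, 849 and 311 CPM against 3.06 to 67.6 CPM (median 6.11) in the vehicle mice. Of 13 neutrophil markers 10 were tested, and all 10 rose. The filter on low counts used the groups, so a gene near 0 in vehicle was tested only if the TAA mice expressed it. The count is thus partly set by the filter. Ly6g stood at 0.698, 0.584, 0.748, 0.816 and 0.909 CPM against 0 in all 13 vehicle mice, so no fold is given. Genes of immature granulocytes were at or near 0: Mpo was at 0 in all 5 TAA mice, Elane and Camp were below the filter on low counts, and Camp stood at 0.571, 0, 0, 0.136 and 0 CPM in the TAA mice and 0 to 0.193 CPM (median 0) in the vehicle mice, highest in TAA mouse 1. S100a8 and S100a9 rose by 5.03 ± 0.84 and 5.41 ± 0.72, and by 5.65 and 6.09 without vehicle mouse 18. Macrophage and monocyte markers rose in 7 of 12 cases, among them S100a4 (2.34) and Ccr2 (2.32), and none fell. The part of these cells in the rises of chemokine, cytokine and matrix genes was not tested.

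Haemoglobin genes rose in a perfused liver. Hbb-bs stood at 1523, 1641, 1031, 1809.8 and 1098 CPM in the TAA mice and 12.7 to 80.6 CPM (median 36.5) in the vehicle mice, above every vehicle mouse, with a log2 fold change of 5.12 ± 0.31 (SE, adjusted p = 1.2e-10). Hba-a1, Hba-a2 and Hbb-bt, near-identical to one another in pairs, rose as well (4.96, 5.23 and 4.58). Summed over the platelet and red cell markers, the TAA mice stood at 4707, 4505, 2926, 5212 and 3023 CPM against 93.2 to 372 CPM (median 186) in the vehicle mice. Alas2, the haem synthesis gene of developing red cells, fell by 0.72 ± 0.20 on the log2 scale. The platelet chemokine gene Pf4 rose by 2.30 ± 0.34.

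Sinusoidal endothelial genes fell in 10 of 13 tested cases and rose in 3, and their sum was 180.5, 132, 152, 167 and 159.7 CPM in the TAA mice against 163 to 267 CPM (median 207) in the vehicle mice. Clec4g, a lectin of these cells, stood at 33, 12.7, 8.09, 14.9 and 13.3 CPM in the TAA mice and 47.4 to 82.4 CPM (median 58.3) in the vehicle mice. Kdr, the main receptor for VEGF, stood at 4.63, 2.44, 1.41, 1.90 and 0.988 CPM in the TAA mice and 9.24 to 15.4 CPM (median 12) in the vehicle mice. Wnt2, a signal from endothelium that keeps pericentral hepatocytes in their state, stood at 0.508, 0.893, 0.259, 0.408 and 0.277 CPM in the TAA mice and 1.17 to 2.48 CPM (median 1.96) in the vehicle mice. The groups did not overlap in these 3 genes, with log2 fold changes of -1.85 ± 0.25 (SE, adjusted p = 4.13e-06), -2.40 ± 0.26 (SE, adjusted p = 3.83e-07) and -2.04 ± 0.28 (SE, adjusted p = 5.86e-06). Lyve1, the hyaluronan receptor of the same cells, went the other way and stood at 43, 31.5, 65, 62.9 and 57.2 CPM in the TAA mice and 2.96 to 7.57 CPM (median 5.22) in the vehicle mice, a log2 fold change of 3.37 ± 0.20 (SE, adjusted p = 9.63e-11). Among Kupffer cell markers Clec4f fell by 0.99 ± 0.23 on the log2 scale and Marco rose by 2.06 ± 0.44, and 6 of 10 did not pass the test. In mice numbered 1 to 4 alone 4 Kupffer cell markers rose and none fell, and in mice numbered above 4 alone 1 rose and 7 fell. Of 7 B and plasma cell markers 6 rose, with Cd79a at 2.37 ± 0.31. Summed over the dendritic cell markers, the TAA mice stood at 247, 145, 109, 116 and 144 CPM against 225 to 349 CPM (median 282) in the vehicle mice. Mouse 1 lay within the vehicle range and the other 4 below it, and of 5 tested members 1 rose and 1 fell. No T cell marker of 7 passed the test, and Cd3e gave 0.49 ± 0.49. Stellate cell markers split, with Dcn up by 1.29 ± 0.25 and Lrat, which stores retinol, down (-1.88 ± 0.26).

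**Figure D4:**
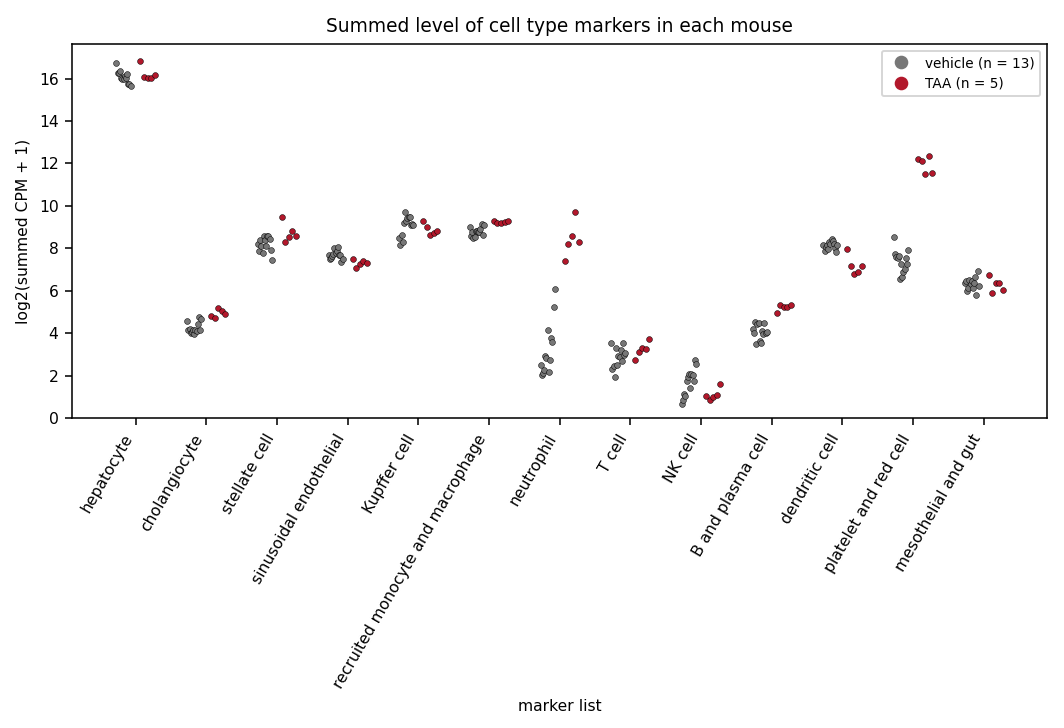
Summed level of each marker list in each mouse, as log2 of summed CPM plus 1, with grey points for the 13 vehicle mice and red points for the 5 TAA mice. The neutrophil and the platelet and red cell sums lie above all vehicle mice in TAA, and the hepatocyte sum of 1 TAA mouse, at 116100 CPM, lies above the other 4.

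Many transcription factors of hepatocytes fell. Of 26 tested 18 fell and 1, Ppara, rose (0.45 ± 0.13), and in mice numbered 1 to 4 alone, 2 TAA and 4 vehicle mice, 9 fell. Cebpa, which maintains the mature hepatocyte, stood at 70.2, 26.8, 28.8, 33.5 and 34.3 CPM in the TAA mice and 91.6 to 162 CPM (median 109) in the vehicle mice. Foxa2 stood at 4.89, 9.14, 6.42, 4.83 and 9.40 CPM in the TAA mice and 9.81 to 38.5 CPM (median 18.7) in the vehicle mice, and Nr0b2, the repressor of bile acid synthesis induced by the bile acid receptor, at 4.44, 10.1, 5.61, 4.96 and 3.71 CPM in the TAA mice and 31.4 to 107 CPM (median 71.6) in the vehicle mice. All 3 were below vehicle in every TAA mouse, with log2 fold changes of -1.56 ± 0.20 (SE, adjusted p = 1.98e-06), -1.58 ± 0.28 (SE, adjusted p = 0.000119) and -3.57 ± 0.33 (SE, adjusted p = 3.73e-08). Hnf4a, the central regulator, fell by 0.37 ± 0.15 on the log2 scale, a call lost without TAA mouse 3, 6 or 7 or vehicle mouse 8, 9, 10, 12 or 16. Alb gave 0.10 ± 0.21 and did not pass the test. Of 33 plasma protein genes 9 fell and 3 rose, where 24% and 26.4% of all genes did, and without TAA mouse 1 the falls were 16, and 3 or 4 without any other TAA mouse. Afp, the fetal counterpart of albumin, was among those that rose (4.18 ± 0.35), with a value of 3.38 without TAA mouse 3. Clotting and complement genes fell in 23 of 39 cases and none rose (median -0.59). In mouse 1 the median of that list was 0.12, and -0.94 to -0.56 in the other 4 TAA mice.

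Genes of both zones of the lobule fell. Of 28 pericentral genes 21 fell and none rose (median -0.99), and of 24 periportal genes 14 fell and 3 rose (median -0.80). Glul, glutamine synthetase of the last hepatocytes around the central vein, stood at 333, 136, 144, 99.9 and 114 CPM in the TAA mice and 309 to 634 CPM (median 477) in the vehicle mice. Lgr5 and Notum, targets of Wnt signalling in the same cells, stood at 0.190, 0.137, 0.662, 0.0680 and 0.158 CPM in the TAA mice and 1.17 to 3.70 CPM (median 2.41) in the vehicle mice and 8.12, 3.40, 6.85, 8.56 and 4.46 CPM in the TAA mice and 15.9 to 31.3 CPM (median 26) in the vehicle mice. Lgr5 and Notum did not overlap vehicle, with log2 fold changes of -3.25 ± 0.41 (SE, adjusted p = 2.06e-06) (-4.13 without TAA mouse 6) and -1.98 ± 0.22 (SE, adjusted p = 3.68e-07), and Glul gave -1.56 ± 0.24 (SE, adjusted p = 1.88e-05). Axin2, a Wnt target in many cell types, fell by 0.83 ± 0.21 on the log2 scale. On the periportal side Hal, which degrades histidine (-2.49 ± 0.22), and Gls2, the glutaminase of periportal cells (-2.23 ± 0.19), fell. The periportal genes that rose were Sox9, Cdh1 and Hsd17b13, of which Sox9, also a marker of bile duct cells, stood at 9.77, 8.38, 17.5, 12.4 and 12.4 CPM in the TAA mice and 0.823 to 2.37 CPM (median 1.36) in the vehicle mice, a log2 fold change of 3.05 ± 0.21 (SE, adjusted p = 1.06e-09).

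Genes of nitrogen disposal fell with them. Of 51 amino acid breakdown genes 44 fell and none rose, with a median of -1.01. Cps1, the first step of the urea cycle, stood at 862, 391, 457, 448 and 515 CPM in the TAA mice and 594 to 1499 CPM (median 997) in the vehicle mice. Mouse 1 lay inside the vehicle range, and the log2 fold change was -0.91 ± 0.20 (SE, adjusted p = 0.00103). Ass1, a later step, fell by 1.49 ± 0.28 on the log2 scale. Car5a, which supplies bicarbonate to Cps1, stood at 25, 7.28, 10.2, 13.4 and 8.22 CPM in the TAA mice and 56.1 to 79.8 CPM (median 68.4) in the vehicle mice. It was below vehicle in every TAA mouse, with a log2 fold change of -2.43 ± 0.23 (SE, adjusted p = 4.53e-08). Among breakdown enzymes, Sds, which degrades serine (-2.63 ± 0.29), Afmid, of the tryptophan route (-1.98 ± 0.27), and Prodh, of the proline route (-1.82 ± 0.18), fell.

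Genes of bile acid synthesis and transport fell. Of 21 synthesis genes 14 fell and none rose (median -1.09). Cyp7a1, the rate-limiting enzyme, stood at 2.09, 0.618, 7.86, 25.7 and 4.46 CPM in the TAA mice and 13.8 to 529 CPM (median 78.9) in the vehicle mice. Its values varied widely in both groups and overlapped, with a log2 fold change of -3.998 ± 0.95 (SE, adjusted p = 0.00160), or -5.12 without TAA mouse 7. Slc10a1, which takes up bile acids from blood, stood at 282, 96, 104, 109 and 97.9 CPM in the TAA mice and 296 to 752 CPM (median 456) in the vehicle mice. Abcb11, which pumps them into bile, stood at 43.1, 14.4, 21.8, 28.7 and 20.3 CPM in the TAA mice and 70.9 to 143 CPM (median 116) in the vehicle mice. Both lay below vehicle in every TAA mouse, with log2 fold changes of -1.75 ± 0.26 (SE, adjusted p = 1.76e-05) and -2.10 ± 0.22 (SE, adjusted p = 1.59e-07). Abcg5 and Abcg8, which export cholesterol into bile, fell, with log2 fold changes of -2.36 ± 0.27 and -2.16 ± 0.30. Of 22 tested transporters 13 fell and 4 rose, the largest rises being in Abcb1a (1.94) and Abcc1 (1.76), which export drugs and conjugates.

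Lipid synthesis genes fell, and genes of lipid droplets moved both ways. Of 23 fatty acid synthesis genes 20 fell and 1 rose, with a median of -2.0. Srebf1, which encodes the factor that drives them, stood at 32.2, 35.9, 32, 42.8 and 31.8 CPM in the TAA mice and 248 to 580.4 CPM (median 414) in the vehicle mice. Fasn, fatty acid synthase, stood at 89.6, 71.9, 51.6, 38.6 and 72.7 CPM in the TAA mice and 242 to 1560 CPM (median 458) in the vehicle mice. Neither overlapped, with log2 fold changes of -3.54 ± 0.21 (SE, adjusted p = 9.63e-11) and -3.10 ± 0.49 (SE, adjusted p = 3.23e-05). Mlxipl, the carbohydrate-responsive factor, fell by 2.48 ± 0.17 on the log2 scale, and Elovl7 was the 1 gene that rose (3.77 ± 0.50). Of 28 cholesterol synthesis genes 15 fell and 2 rose, among them Hsd17b7 (0.77 ± 0.20). Of 16 tested lipid droplet genes 7 rose and 4 fell. Cidec, named above, stood at 117, 186, 103, 85.2 and 96.9 CPM in the TAA mice and 0.142 to 1.34 CPM (median 0.724) in the vehicle mice. Hilpda, an inhibitor of fat breakdown induced by low oxygen, stood at 137, 127, 157, 189 and 175 CPM in the TAA mice and 1.23 to 5.40 CPM (median 2.70) in the vehicle mice. Plin2, which coats droplets, stood at 1058, 1488, 844, 761.8 and 924 CPM in the TAA mice and 167 to 331 CPM (median 212) in the vehicle mice. The groups did not overlap in these 3 genes, with log2 fold changes of 7.30 ± 0.33 (SE, adjusted p = 3.45e-12), 5.65 ± 0.25 (SE, adjusted p = 2.76e-12) and 2.17 ± 0.16 (SE, adjusted p = 1.73e-09).

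Genes of fatty acid oxidation had rises and falls, 13 and 6 of 38, so that the share called was near the 50.5% of all genes. The rises included targets of PPAR-alpha, the fasting-induced fat receptor: Cyp4a10 (1.92), Ehhadh (1.72), Acot1 (3.09) and Pdk4 (3.02). Pdk4, which blocks entry of pyruvate into mitochondria, stood at 15.4, 56.2, 42.7, 33 and 26.3 CPM in the TAA mice and 1.92 to 7.2 CPM (median 3.96) in the vehicle mice, above every vehicle mouse. Cpt1a, the gate of mitochondrial fat entry, did not pass the test (-0.20 ± 0.18), and Cpt2, the next step, fell by 0.82 ± 0.13 on the log2 scale. Without TAA mouse 1 the falls were 12, and without mouse 8 they were 3. Nuclear genes of the respiratory chain fell in 18 of 43 cases and Cycs rose. The count was 32 without mouse 1 and 11 without mouse 6. None of the 13 mitochondrially encoded genes passed the test, and their median was 0.01.

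Genes of glucose output fell and genes of glycolysis rose. Of 20 genes of glucose output and glycogen 14 fell and 1, Pfkfb3, rose (2.58 ± 0.21). G6pc, which releases free glucose, stood at 4.19, 28.9, 9.18, 3.87 and 6.24 CPM in the TAA mice and 97.5 to 341 CPM (median 213) in the vehicle mice. Mouse 3 was the highest TAA mouse for G6pc, the groups did not overlap, and the log2 fold change was -4.31 ± 0.49 (SE, adjusted p = 5.34e-07) (-5.14 without mouse 3). Of 18 glycolysis genes 11 rose and 2 fell. Slc16a3, which exports lactate, stood at 9.14, 24.6, 25.5, 56 and 22.2 CPM in the TAA mice and 0.0558 to 2.85 CPM (median 0.235) in the vehicle mice. Pkm, the pyruvate kinase of cells other than mature hepatocytes, stood at 117, 217, 186, 286 and 169 CPM in the TAA mice and 10.6 to 42.6 CPM (median 19.98) in the vehicle mice, and its hepatocyte counterpart Pklr fell by 3.18 ± 0.38 on the log2 scale. Hk2 and Slc2a1 rose by 2.66 ± 0.26 and 3.82 ± 0.26. Slc16a3 and Pkm lay above vehicle in every TAA mouse, with log2 fold changes of 5.44 ± 0.56 (SE, adjusted p = 1.75e-07) and 3.09 ± 0.26 (SE, adjusted p = 9.58e-09).

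Single growth hormone targets and clock genes changed, and the share of members called, 12 of 26 and 11 of 19, was near the 50.5% of all genes. Igfbp1, a stress-induced binder of insulin-like growth factors, rose by 2.50 ± 0.52, and Igfals, which keeps them in the blood, fell by 2.99 ± 0.31 on the log2 scale. Hsd3b5, a male-biased steroid enzyme, stood at 14.3, 0.721, 1.99, 5.13 and 4.42 CPM in the TAA mice and 19.3 to 138 CPM (median 88.6) in the vehicle mice, below every vehicle mouse, and its log2 fold change of -4.03 was -4.82 without TAA mouse 1. Of the 26 growth hormone and male-biased genes 4 rose and 8 fell, where the shares over all genes were 26.4% and 24%. Of 19 clock genes 7 rose and 4 fell. Per1 and Nr1d1 rose by 2.53 ± 0.20 and 1.78 ± 0.51, and Arntl and Npas2, which form the activating arm, fell, with log2 fold changes of -1.37 ± 0.16 and -2.81 ± 0.42. The hour of killing is not given in the sources used here.

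The vehicle mice numbered 1 to 4 differed from the others in some measures, so the TAA effect was also compared between the mice numbered 1 to 4 and those above 4. The labels do not say what the numbers stand for. The ranges were chosen with earlier results of these data known. The vehicle difference that set them also enters the test below, so the test is not independent of it. A test of whether the TAA effect differed between the ranges called 16 genes, 0.111% of those tested, and 10.6% had an unadjusted p below 0.05. Cd5l, a protein secreted by Kupffer cells, gave a difference of 1.82 ± 0.21 (SE, adjusted p = 0.00203) on the log2 scale, with the TAA effect higher in mice 1 to 4. Agxt, a peroxisomal enzyme of glyoxylate, gave 1.26 ± 0.20 (SE, adjusted p = 0.0200). Others among the 16, named here after their values were seen, were the macrophage genes Siglec1 (2.001 ± 0.29 (SE, adjusted p = 0.00921)), Aif1 (2.02 ± 0.33 (SE, adjusted p = 0.0200)) and C1qc (1.54 ± 0.26 (SE, adjusted p = 0.0238)). The summed Kupffer cell markers of the vehicle mice were 281 to 399 CPM in mice 1 to 4 and 544 to 826 CPM in the others, and its part in these differences was not tested. Without TAA mouse 3 the count was 458 and without mouse 1 it was 8, but either fit has a single TAA mouse numbered 1 to 4, which is assumed to vary like the other groups. The count was 1 without mouse 6 or 7 and 10 without mouse 8. Counts of calls in hepatocyte lists were lower in mice 1 to 4 alone, where fewer mice were compared. Clotting and complement genes fell in 2 cases in mice 1 to 4 and in 27 in mice above 4. The same counts were 1 and 27 for the respiratory chain, 1 and 16 for plasma proteins, 9 and 20 for pericentral genes, 7 and 14 for periportal genes, and 23 and 45 for amino acid breakdown. Rises among ribosomal protein genes numbered 17 and 10. Whether these counts differ between the ranges was not tested.

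TAA was also set directly against 3 other compounds given by gavage and sampled at the same time: alpha-naphthyl isothiocyanate (ANIT, 4 mice), which injures bile ducts, acetaminophen (APAP, 6 mice), which injures pericentral hepatocytes, and 4,4'-methylene dianiline (MDA, 7 mice), which injures bile ducts. The 3 contrasts share the TAA mice and so are not independent. Against ANIT 21.6% of 15280 tested genes differed, against APAP 5.98% and against MDA 24.3%. Genes higher in TAA than in all 3 numbered 311 (2.04%), and genes lower than in all 3 numbered 249 (1.63%), together 3.66%. Without TAA mouse 6 these counts were 151 and 108, without mouse 7 they were 190 and 151, and without mouse 8 they were 158 and 117.

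Ribosome biogenesis genes were higher in TAA than in all 3 in 15 of 43 tested cases, glycolysis genes in 7 of 19, and immediate early genes in 6 of 21, against 2.04% of all genes. The growth factor and YAP list gave 6 of 27, Areg, Ereg, Vegfa, Pgf, Ccn1 and Ccn2. Plk2, a p53-induced kinase, stood at a mean of 84 CPM in TAA, 4.57 CPM in ANIT, 6.96 CPM in APAP and 7.03 CPM in MDA. Its log2 differences were 4.21 ± 0.45 against ANIT, 3.60 ± 0.37 against APAP and 3.58 ± 0.35 against MDA. Adm, the vessel-dilating peptide adrenomedullin, stood at a mean of 82.9 CPM in TAA, 1.85 CPM in ANIT, 8.82 CPM in APAP and 2.37 CPM in MDA, with log2 differences of 5.49 ± 0.74 against ANIT, 3.24 ± 0.56 against APAP and 5.12 ± 0.57 against MDA. Both were higher in TAA than in each compound. Areg and Slc16a3 were also among the 5 highest by the smallest of the 3 differences. So was Hist1h4n, a member of a family of near-identical histone genes whose counts are uncertain.

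Lower than in all 3 were 6 of 29 acute phase genes, 5 of 13 sinusoidal endothelial genes and 4 of 20 genes of glucose output, against 1.63% of all genes. Saa2 stood at a mean of 102 CPM in TAA, 4445 CPM in ANIT, 2834 CPM in APAP and 1362 CPM in MDA, with log2 differences of -5.45 ± 1.38 against ANIT, -4.80 ± 1.31 against APAP and -3.74 ± 1.23 against MDA. Its SD was 75.5 CPM in TAA, 3631 CPM in ANIT, 5175 CPM in APAP and 2024 CPM in MDA, above the mean in APAP and MDA. Nr0b2 stood at 5.64 CPM in TAA, 155 CPM in ANIT, 37.2 CPM in APAP and 144 CPM in MDA, with log2 differences of -4.77 ± 0.72 against ANIT, -2.72 ± 0.63 against APAP and -4.67 ± 0.69 against MDA. Serpina7, the carrier of thyroid hormone, gave -3.94 ± 0.83 against ANIT, -4.46 ± 0.82 against APAP and -3.69 ± 0.79 against MDA. Saa1 and Celsr1 made up the other 2 of the 5 lowest. The endothelial genes were Clec4g, Oit3, Kdr, Bmp2 and Tek, and the glucose output genes Pck1, G6pc, Gckr and Pfkfb1. The 4 tested haemoglobin genes were higher in TAA than in all 3 compounds.

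**Figure D5:**
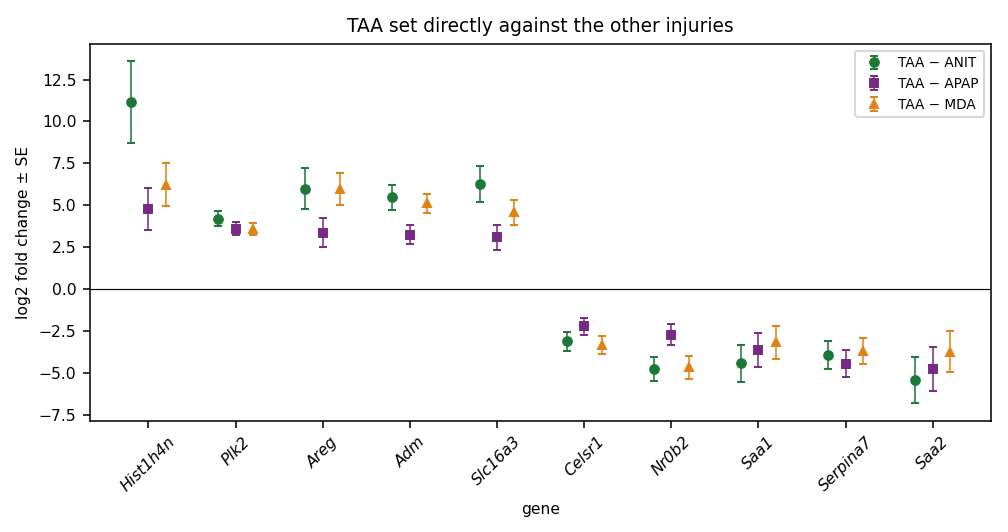
Log2 fold change ± SE of TAA against ANIT (circles), APAP (squares) and MDA (triangles) for the 5 genes highest and the 5 lowest in TAA by the smallest of the 3 differences. The 5 on the left lie above 0 and the 5 on the right below 0 in each of the 3 contrasts.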

How the data were processed

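Liver RNA of 57 mice was sequenced on an Illumina NovaSeq as single-end reads from stranded mRNA libraries, per the labels' protocols. The authors deposited 1 table of estimated counts for 54307 genes. The submitters' processing notes name Salmon 1.6.0, R 4.1.3 and GRCm39, and the annotation release is not given in the sources used here. Column totals lie within 0.124 of whole numbers. Genes with only 1 annotated transcript that were at 0 in many TAA and vehicle samples numbered 6422. Among them the lowest nonzero value is smaller the longer the transcript (Spearman rho -0.931, across genes). The values therefore look length-weighted, which no label states. They are not whole reads, and no counting interval is given.

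Gene IDs were matched to symbols for 51482 genes. Estimated counts were rounded, filtered with filterByExpr, scaled with the trimmed mean of M values and tested in R 4.3.3 with edgeR 4.0.16 (glmQLFit, glmQLFTest), with Benjamini-Hochberg adjustment over all tested genes and a threshold of 0.05. The 5 TAA and 13 vehicle mice alone entered the main fit. A test on simulated data checked the code. DESeq2 1.42.0, limma 3.58.1 on log2(CPM + 1), other scalings and filters, the number range, the replicate block and leaving out each mouse were alternatives. Nothing says whether cages or days were shared, so p-values measure the spread between these mice.

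Named genes were the 12 largest rises and the 12 largest falls among called, non-overlapping genes with at least 10 CPM in the higher group, members of 43 pathway and 13 cell type lists chosen for their role or the size of their change, and the 5 highest and 5 lowest genes of the direct comparisons. Some of these genes are not reported here. The members and lists (1262 distinct genes) were chosen with earlier results of these data known. Promoters came from the RefSeq table of GRCm38.p6.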

Additional observations from a re-analysis of the deposited data

Results flagged for a closer look

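Of 264 measures checked in the 5 TAA mice, 50 (18.9%) had 1 mouse far from the other 4 by Dixon's ratio of gap to range (critical value 0.71), where chance gives about 1 in 20. Named genes share mice and are not independent, so these flags fall together. Mouse 1 accounted for 31 of them and mouse 7 for 12.

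TAA mouse 1 was far above the other 4 in genes of mature hepatocytes. For secreted proteins it stood at 65430 CPM for Alb, 3923 CPM for C3, 562 CPM for Saa1 and 249.9 CPM for Saa2. For oxidising enzymes it stood at 4136 CPM for Cyp2e1, 115 CPM for Fmo1, 518 CPM for Por, 2847 CPM for Cyp4a10 and 697 CPM for Ehhadh. For nitrogen metabolism it stood at 862 CPM for Cps1, 2171 CPM for Ass1, 333 CPM for Glul and 49.7 CPM for Afmid. For bile acids and lipids it stood at 282 CPM for Slc10a1, 27.8 CPM for Abcg8, 19.7 CPM for Cyp8b1 and 37.3 CPM for Thrsp. It was also the highest for Cebpa (70.2 CPM), Calr (847 CPM) and Tmie (2.35 CPM). Outside hepatocyte genes it was highest for Clec4g (33 CPM), Oit3 (11.1 CPM), Col1a2 (23.2 CPM), Col3a1 (64.5 CPM), Alas2 (50.5 CPM), Tagln (111 CPM) and Camp (0.571 CPM), and lowest for Lcn2 (963 CPM) and Marco (16.9 CPM). Its summed hepatocyte markers were 116100 CPM and its summed dendritic cell markers 247 CPM.

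TAA mouse 7 was far above the others in inflammatory genes, at 200.1 CPM for Cxcl2, 158 CPM for Ccl2, 47.7 CPM for Il1b and 3.06 CPM for Il6. The same mouse was highest for Ier3 (158 CPM), Hk2 (9.52 CPM), Slc7a11 (2.65 CPM), Rsad2 (18.9 CPM), Ifit1 (4.93 CPM), Crp (135 CPM) and Cyp7a1 (25.7 CPM). It also had the highest mitochondrial share, 24.4% of counts. TAA mouse 3 was highest for G6pc (28.9 CPM), Afp (33.2 CPM), Psat1 (17.3 CPM), Fmo2 (7.62 CPM) and Birc5 (0.824 CPM). Mouse 6 was highest for Lgr5 (0.662 CPM), and mouse 8 for the summed natural killer cell markers (2.02 CPM).

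The interaction term for mice numbered 1 to 4 against those numbered above 4 called 16 genes. These ranges were chosen with earlier results of these data known. For the named genes among them the difference, mice 1 to 4 minus mice above 4, was 1.82 on the log2 scale for Cd5l, 2.001 for Siglec1, 2.02 for Aif1, 1.54 for C1qc and 1.26 for Agxt. Their adjusted p-values by edgeR were 0.00203, 0.00921, 0.0200, 0.0238 and 0.0200. Vehicle mice 1 to 4 had lower summed Kupffer cell markers than the other vehicle mice, and the part of this difference was not tested.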

How the results depend on the processing

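The comparison rests on 5 TAA mice at a single time, and the vehicle of TAA is not given in the sources used here. Of the 7247 genes called in TAA against vehicle, DESeq2 called 7082 in the same direction and library totals without further scaling 6324. Leaving out 1 mouse gave 6585 to 7487 calls, of which 6430 to 7074 were shared. None of the 7247 was called in the opposite direction by the alternatives run. With a mean CPM of at least 5 there were 4632 calls among fewer tested genes, and mice numbered 1 to 4 alone gave 2689 with fewer samples. Genes called with at least a 2-fold change numbered 3619, and 3460 to 3910 without 1 mouse. That count was 5447 without a filter on low counts, 1754 with a mean CPM of at least 5, 2344 with limma on log2(CPM + 1) and 2246 in mice numbered 1 to 4.

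The interaction with the number range called 16 genes, 181 with DESeq2, 5 without a filter on low counts, and 1 to 458 without 1 TAA mouse, the highest without mouse 3, where mouse 1 alone stands for the TAA mice numbered 1 to 4. Genes called the same way against ANIT, APAP and MDA numbered 560. DESeq2 gave 891, library totals 316, no filter on low counts 356, and leaving out 1 TAA mouse 259 to 541. The cause of these moves was not tested.

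The samples share only a replicate number, with correlations of same-numbered deviations of 0.309, 0.129, 0.195 and -0.00171 for numbers 1, 3, 7 and 8, and numbers 1 and 7 correlated best with their own. With the replicate number as a block, 4869 genes were called in TAA against vehicle, 3192 with at least a 2-fold change, and 51 the same way in the direct comparisons. Only numbers that occur in both groups inform that fit.

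Among named genes in mice numbered 1 to 4, the sign turned for Agxt (0.11), C1qc (0.87), Cd5l (1.29), Saa1 (1.70), Saa2 (2.34) and Siglec1 (0.38) on the log2 scale. C1qc, Cd5l, Saa1 and Saa2 did not pass the test with all mice and passed it there with the turned sign. Of 213 named genes called, 1 lost its call with DESeq2, 5 with library totals, 2 with limma, 19 with the replicate block and 1 to 6 without 1 mouse. In mice numbered 1 to 4, 37 of 211 lost it. The fold change of called genes moved by more than 1.5 times for 53 genes with limma on log2(CPM + 1), 31 with the block and 58 in mice numbered 1 to 4. Of 29 named genes not called, 6 gained a call without TAA mouse 1 and 7 in mice numbered above 4.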
